A study of Mus musculus with 24 samples.

Results

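The 26S proteasome genes of mouse liver were followed through acute pancreatitis. They were taken as every row of the expression table whose symbol is Psm, then a letter from a to g, then a number, with pseudogenes left out, which gave 49 of 55536 entries. The 49 comprise 8 alpha and 8 beta subunits of the 20S core, the 3 inducible beta subunits of the immunoproteasome (Psmb8, Psmb9 and Psmb10), 6 ATPases (Psmc) and 14 other genes (Psmd) of the 19S regulator, 6 activator or inhibitor genes (Psme and Psmf1) and 4 assembly chaperones (Psmg). Of these, 46 had a mean of at least 1 TPM (transcripts per 1000000) over all libraries and were tested. Psma8, Psmb11 and Psme2b did not, and no library exceeded 1.01 TPM of any of them.

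RNA had been sequenced from liver of wild-type Balb/c mice aged 6 weeks. There were 8 libraries of healthy controls (Con), 8 of acute pancreatitis (AP), in which the pancreas is inflamed, and 8 of severe acute pancreatitis (SAP), the form that can injure other organs. The method of inducing pancreatitis and the time of sampling are not analysed here. No label states that the 8 libraries of a group stand for 8 different mice. The p-values therefore reflect variation among libraries, which may be technical.

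The proteasome is the protease that degrades proteins tagged with ubiquitin. Its barrel, the 20S core, is built of outer rings of alpha subunits, which gate the entry, and inner rings of beta subunits, of which Psmb5, Psmb6 and Psmb7 carry the proteolytic sites. The 19S regulator caps the barrel. Its ATPases unfold the substrate and thread it into the core, and its lid removes the ubiquitin chain. Under interferon, Psmb8, Psmb9 and Psmb10 replace Psmb5, Psmb6 and Psmb7 to form the immunoproteasome, which favours peptides for antigen presentation. Liver makes much of the protein of blood plasma and has a high protein turnover.

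The total per library was 986423 to 993642 TPM, and this unit holds no read depth, so depth is unknown. Hepatocyte markers (Alb, Apoa1, Ttr, Serpina1a and Cps1) summed to between 37093 and 54133 TPM in every library, as the tissue label says, while exocrine pancreas markers summed to at most 1.23 TPM. Neutrophil markers summed to 2.45 to 28.0 TPM in Con, 3.18 to 7.45 TPM in AP and 124 to 349 TPM in SAP. The 3 of 7 that were tested were all higher in SAP than in Con, against 44.2% of all genes. A marker that is low elsewhere can reach the mean of 1 TPM through SAP alone, so that count adds nothing to the sums. Transcripts of the mitochondrial genome took 12.5 to 22.2% of TPM in Con, 7.81 to 13.7% in AP and 2.80 to 6.26% in SAP. Both move with the SAP results below, and their part in them was not tested. In bulk tissue, fewer cells of a type and less RNA per cell cannot be told apart.

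The promoters of 41 of the 49 genes were matched by symbol in RefSeq (build GRCm38.p6, 250 bases before to 50 after the start site). Those of the genes on which the results below turn are printed 5′ to 3′. Psmd13, Psmd8 and Psmc1 encode the lid subunits and the ATPase that rose most in SAP, and capitals mark CGGAAG or its reverse complement, the core bound by ETS factors.
Psmd13, chr7:140882144-140882443, plus strand: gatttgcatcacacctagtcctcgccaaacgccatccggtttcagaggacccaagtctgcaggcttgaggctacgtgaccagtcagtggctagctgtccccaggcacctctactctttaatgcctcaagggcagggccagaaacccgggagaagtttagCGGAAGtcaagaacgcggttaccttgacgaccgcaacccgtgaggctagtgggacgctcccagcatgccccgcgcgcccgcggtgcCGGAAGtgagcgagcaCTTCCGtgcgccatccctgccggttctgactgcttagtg
Psmd8, chr7:29180624-29180923, minus strand: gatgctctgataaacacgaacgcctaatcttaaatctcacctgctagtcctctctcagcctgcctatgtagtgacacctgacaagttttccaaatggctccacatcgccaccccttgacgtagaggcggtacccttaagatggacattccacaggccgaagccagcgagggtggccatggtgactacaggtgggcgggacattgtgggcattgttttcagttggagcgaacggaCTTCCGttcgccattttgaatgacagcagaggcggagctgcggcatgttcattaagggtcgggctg
Psmc1, chr12:100109952-100110251, plus strand: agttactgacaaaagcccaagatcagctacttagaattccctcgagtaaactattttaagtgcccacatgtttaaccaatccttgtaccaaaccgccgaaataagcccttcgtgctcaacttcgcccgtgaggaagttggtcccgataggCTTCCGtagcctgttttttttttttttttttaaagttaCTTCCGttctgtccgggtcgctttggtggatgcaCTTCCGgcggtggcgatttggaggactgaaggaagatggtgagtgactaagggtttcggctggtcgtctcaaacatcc

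Psmb5 and Psmb6 encode catalytic subunits that moved in opposite directions in SAP, and capitals mark TGACNNNGC, the core of the antioxidant response element.
Psmb5, chr14:54617946-54618245, minus strand: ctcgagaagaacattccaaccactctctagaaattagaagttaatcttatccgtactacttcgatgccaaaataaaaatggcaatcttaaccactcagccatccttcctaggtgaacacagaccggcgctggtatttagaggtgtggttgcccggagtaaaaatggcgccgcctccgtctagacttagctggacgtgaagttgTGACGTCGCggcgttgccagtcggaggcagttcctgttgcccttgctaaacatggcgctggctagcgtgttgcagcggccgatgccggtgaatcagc
Psmb6, chr11:70525107-70525406, plus strand: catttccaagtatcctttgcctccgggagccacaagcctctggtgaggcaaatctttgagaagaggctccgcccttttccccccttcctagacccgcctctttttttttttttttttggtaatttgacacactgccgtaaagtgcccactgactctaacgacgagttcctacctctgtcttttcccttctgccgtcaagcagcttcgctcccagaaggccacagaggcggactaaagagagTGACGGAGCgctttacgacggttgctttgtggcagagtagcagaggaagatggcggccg

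Psmb8 and Psmb9 are inducible subunits. Capitals mark TTCNNNGAA, the gamma-activated site, in Psmb8 and the NF-Y box CCAAT, on the other strand, in Psmb9.
Psmb8, chr17:34197945-34198244, plus strand: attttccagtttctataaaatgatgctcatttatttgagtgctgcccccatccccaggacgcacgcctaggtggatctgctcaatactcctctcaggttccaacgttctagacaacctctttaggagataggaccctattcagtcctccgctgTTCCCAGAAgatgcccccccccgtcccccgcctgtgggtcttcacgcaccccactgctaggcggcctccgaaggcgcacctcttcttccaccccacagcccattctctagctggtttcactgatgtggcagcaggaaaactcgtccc
Psmb9, chr17:34187281-34187580, minus strand: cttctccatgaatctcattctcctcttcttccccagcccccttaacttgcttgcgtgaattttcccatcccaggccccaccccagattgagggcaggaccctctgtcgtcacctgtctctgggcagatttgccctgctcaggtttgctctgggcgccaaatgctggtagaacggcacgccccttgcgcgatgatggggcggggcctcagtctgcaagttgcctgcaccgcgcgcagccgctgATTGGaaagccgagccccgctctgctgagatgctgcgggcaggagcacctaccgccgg

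Both strands were searched for 5 motifs. The antioxidant response core was found in 6 of the 41 genes (14.6%), against 13.99% of all 27025 genes in the promoter table. These 6 were Psmb5, Psmb6, Psmc6, Psmd9, Psmd12 and Psme4. Psmd13, Psmd8 and Psmc1 hold no such match in this window. The core of the interferon-stimulated response element, GAAANNGAA, was found in 7 genes (17.1%, against 9.76%), the gamma-activated site in 3 (7.32%, against 9.55%) and the NF-Y box in 14 (34.1%, against 41.1%). The fifth motif, CGGAAG, was added only after the other 4 had been counted and the promoters of Psmd13, Psmd8 and Psmc1 had been read, and it was chosen because it stood in them. It was found in 22 of 41 genes (53.7%, against 18.8%), and in 19 of 38 without those 3 promoters. In the results below, Psmb3, Psmd4 and Psmg1 of these 22 were lower in SAP than in Con. Psmd2 was not called, Psmb11 was not tested and the others were higher. Psmd10, which also rose, holds no match in this window. Because the motif was picked this way, and because shares of all genes are not matched for base composition, its share is a description. A match is a run of letters, not a bound site.

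Proteasome genes were mostly higher in SAP than in Con. Of 46 tested genes, 30 were higher (65.2%), against a background of 44.2% of all 10555 genes tested, and 8 were lower (17.4%), against 29.8%. The median difference of the 46 genes was 0.57 on the log2(TPM + 1) scale, beside 0.21 over all genes. The higher genes included 10 of 14 constitutive core subunits and 16 of 20 genes of the 19S regulator, but none of the 3 inducible subunits. For 14 of the 30 higher genes and 1 of the 8 lower genes (Psmg4), the SAP and Con libraries did not overlap. The share of all tested genes without overlap is not given here, so these counts describe the members only. Calls are from limma, at a Benjamini-Hochberg adjusted p under 0.05 over all genes, and each fold is 2 to the power of a difference in log2(TPM + 1), so it understates low genes. Centring each library on its median gave 26 higher and 12 lower, against 36.8% and 40.7% of all genes. The median over all genes was then -0.06. Without Con 3 and Con 9 the lower genes numbered 4.

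**Figure D1:**
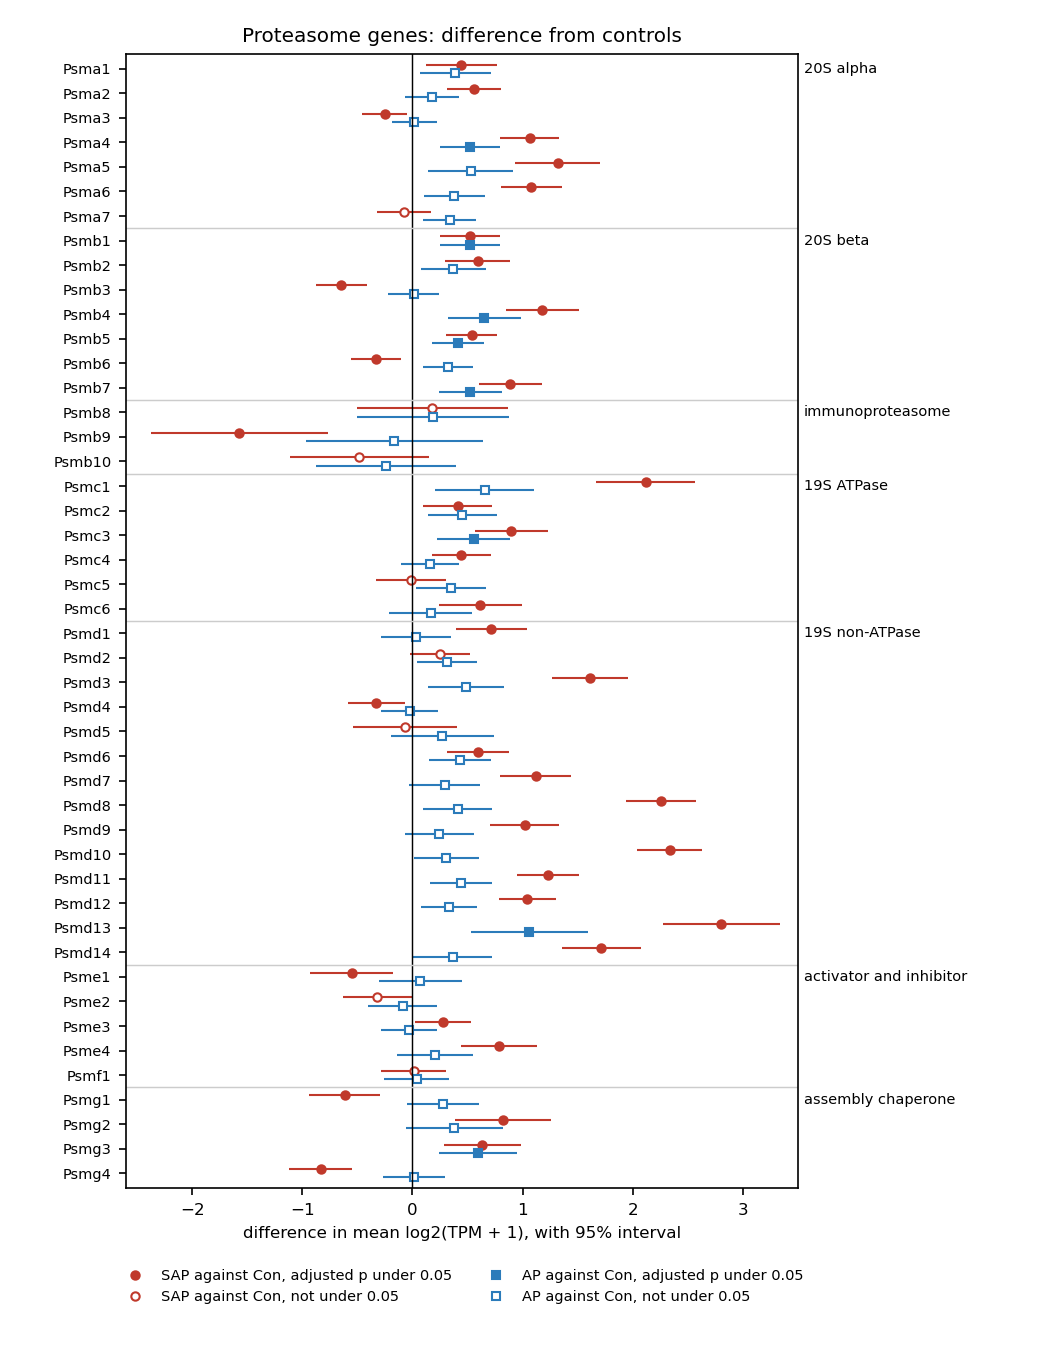
Difference from Con in mean log2(TPM + 1), with 95% intervals, for the 46 tested genes by role. Circles are SAP and squares AP, filled where the adjusted p was under 0.05. Filled circles right of 0 number 30 and left of 0 number 8, and 8 squares are filled, all right of 0.

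The largest rises were in the 19S regulator. Psmd13, a scaffold subunit of the lid, ranged from 2.01 to 7.36 TPM in Con (median 3.98), from 5.53 to 18.7 TPM in AP (median 8.96) and from 22.3 to 52.2 TPM in SAP (median 32.8). Every SAP library lay above every library of both other groups. The SAP mean was 6.98-fold that of Con (log2 difference 2.80 ± 0.26 SE, adjusted p = 4.77e-10). Psmd13 overlaps Sirt3 on the other strand, and no source used here says whether counting used strand.

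Psmd8, another lid subunit, ranged from 25.2 to 49.9 TPM in Con (median 36.5), from 39.4 to 58.0 TPM in AP (median 46.0) and from 120.5 to 227 TPM in SAP (median 184). The AP libraries overlapped Con, and the SAP libraries stood above both. Psmd8 rose 4.77-fold from Con to SAP on the same scale (log2 difference 2.25 ± 0.15 SE, adjusted p = 2.09e-12). Psmd14, the lid enzyme that cuts ubiquitin chains off the substrate, ranged from 6.92 to 17.2 TPM in Con (median 11.4), from 10.7 to 22.0 TPM in AP (median 14.5) and from 31.2 to 49.9 TPM in SAP (median 36.7). It rose 3.28-fold in SAP without overlap (log2 difference 1.71 ± 0.17 SE, adjusted p = 2.70e-09).

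All 8 lid genes among the members rose in SAP. The other lid genes were Psmd3 (log2 difference 1.61), Psmd11 (1.23), Psmd7 (1.12), Psmd12 (1.04) and Psmd6 (0.59). In 6 of the 8 the SAP libraries did not overlap Con, a count with no share of all genes beside it. The median over the lid was 1.42. By contrast, the 3 non-ATPase genes of the base among the members went different ways. Psmd1, a scaffold, rose (0.72), Psmd4, a receptor for ubiquitin chains, fell by 0.33, and Psmd2, the other scaffold, had a difference of 0.25 with an adjusted p of 0.0919. The division into lid and base is textbook knowledge but was applied after the values had been seen. The fall of Psmd4 was not called without Con 3 (log2 difference -0.25, adjusted p = 0.0572).

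Psmd10, also called gankyrin, Psmd9 and Psmd5 are chaperones that help to assemble the base. Psmd10 ranged from 1.05 to 2.49 TPM in Con (median 1.65), from 1.60 to 3.56 TPM in AP (median 2.09) and from 10.4 to 16.7 TPM in SAP (median 11.6). It was the least abundant tested member in Con and rose 5.04-fold without overlap in SAP (log2 difference 2.33 ± 0.14 SE, adjusted p = 3.29e-13). Psmd9 rose as well (log2 difference 1.02), but 24.9% of its 50-base windows occur in other transcripts and it overlaps Hpd on the other strand, so its level is uncertain. Psmd5 had a log2 difference of -0.07 (95% interval -0.54 to 0.40), which was not called.

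Among the ATPases of the base, 5 of 6 rose in SAP and Psmc5 was not called. Psmc1 ranged from 13.3 to 32.2 TPM in Con (median 19.2), from 19.7 to 49.5 TPM in AP (median 31.6) and from 62.7 to 126 TPM in SAP (median 93.3). All SAP libraries exceeded all others, and Psmc1 rose 4.34-fold from Con to SAP (log2 difference 2.12 ± 0.22 SE, adjusted p = 3.67e-09). Psmc3 also rose without overlap (log2 difference 0.90). Psmc6, Psmc4 and Psmc2 rose by 0.62, 0.44 and 0.41 with overlapping groups. The rise of Psmc6 lay in SAP 26 to 29, at 22.2 to 47.6 TPM, while SAP 21, 22, 24 and 25 had 15.1 to 17.8 TPM, inside the Con range of 12.0 to 18.9 TPM. Without SAP 26 to 29, its log2 difference was 0.12 (adjusted p = 0.294), that of Psmc2 was 0.09 (adjusted p = 0.604) and that of Psmc4 was 0.32 (adjusted p = 0.0604). With libraries centred on their median, 3 ATPases were higher and Psmc5 was lower (-0.29, adjusted p = 0.0142), while Psmc4 (0.17, adjusted p = 0.0515) and Psmc2 (0.14, adjusted p = 0.210) were not called, and these calls were also lost without mitochondrial transcripts.

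**Figure D2:**
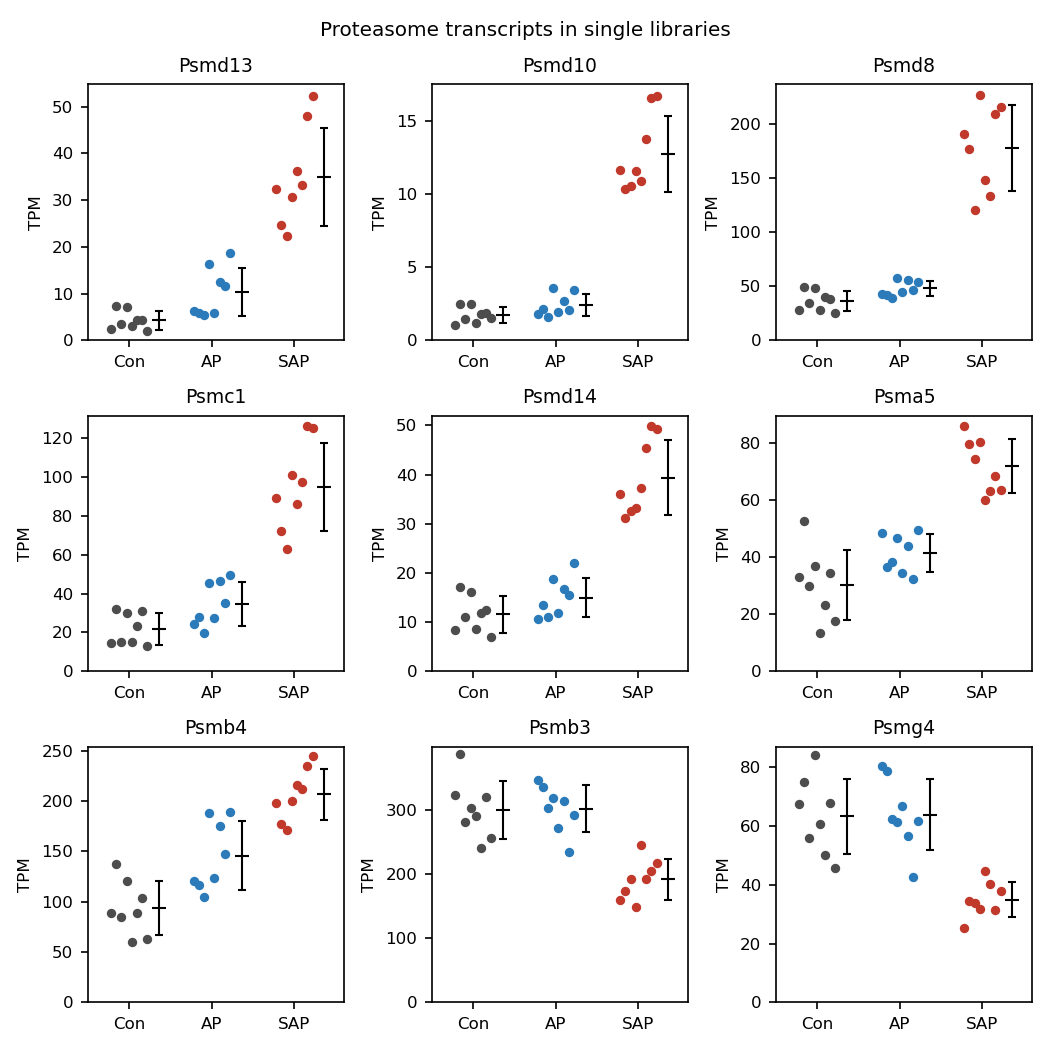
TPM of 9 proteasome genes in each library, 8 per group, with mean and SD beside the points. Psmd13, Psmd10, Psmd8, Psmc1, Psmd14, Psma5 and Psmb4 are higher in every SAP library than in every Con library, Psmg4 is lower in every one, and Psmb3 is below every Con library in 7 of 8.

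The 20S core moved less and in both directions. Of 7 alpha subunits, which form the outer rings, 5 rose in SAP, led by Psma5, Psma6 and Psma4, whose SAP and Con libraries did not overlap. Psma5 ranged from 13.6 to 52.7 TPM in Con (median 31.4), from 32.4 to 49.3 TPM in AP (median 40.9) and from 59.8 to 85.8 TPM in SAP (median 71.2). It rose 2.496-fold (log2 difference 1.32 ± 0.19 SE, adjusted p = 7.80e-07), but 659 of its 1319 windows are shared with other transcripts, so its level is uncertain. Psma6 and Psma4 rose by 1.08 and 1.06. Psma2 and Psma1 rose by 0.56 and 0.44, Psma7 was not called (-0.07), and Psma3 fell by 0.25. The call of Psma3 was lost without Con 3 (log2 difference -0.21, adjusted p = 0.0609). That of Psma1 was lost with centred libraries (0.17, adjusted p = 0.192), without mitochondrial transcripts (0.24, adjusted p = 0.142) and without SAP 26 to 29 (0.38, adjusted p = 0.0996).

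All 7 tested constitutive beta subunits were called in SAP, 5 of them higher and 2 lower. Psmb4, a structural subunit, ranged from 59.8 to 138 TPM in Con (median 88.9), from 105 to 189 TPM in AP (median 136) and from 171 to 245 TPM in SAP (median 206). It rose 2.26-fold without overlap between SAP and Con (log2 difference 1.18 ± 0.16 SE, adjusted p = 3.68e-07). Psmb3, also structural, ranged from 241 to 386 TPM in Con (median 296), from 234 to 347 TPM in AP (median 308) and from 148 to 245 TPM in SAP (median 191). It fell by 0.65 on the log2 scale (adjusted p = 1.30e-05).

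The catalytic beta subunits did not move together. Psmb7, with trypsin-like activity, ranged from 43.6 to 83.3 TPM in Con (median 70.3), from 75.5 to 112 TPM in AP (median 85.8) and from 95.3 to 139 TPM in SAP (median 119). It rose by 0.89 in SAP without overlap. Psmb5, with chymotrypsin-like activity, rose by 0.54, from a Con range of 74.0 to 136 TPM (median 97.0) and an AP range of 116 to 159 TPM (median 122) to a SAP range of 126 to 167 TPM (median 139), though 54.1% of its windows are shared, mainly with a pseudogene. Psmb6, with caspase-like activity, ranged from 261 to 449 TPM in Con (median 315), from 360 to 439 TPM in AP (median 406) and from 199 to 321 TPM in SAP (median 253). It fell by 0.33 (adjusted p = 0.00968), and without SAP 21, 22, 24 and 25 the difference was -0.13 (adjusted p = 0.316).

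The levels of the genes of each complex lay closer together in SAP. Across the 14 tested core subunits, the highest mean level was 10.8 times the lowest in Con, 10.5 times in AP and 5.12 times in SAP, on the TPM scale. Across the 20 genes of the 19S regulator, its 3 assembly chaperones included, it was 88.6 times in Con, 62.0 times in AP and 24.6 times in SAP. The lowest of these was Psmd10 in Con and AP and Psmd5 in SAP, and the highest was Psmd4 in Con and AP and Psmd8 in SAP. Median subunit levels went from 82.2 to 119 TPM in the core and from 20.9 to 46.9 TPM in the regulator between Con and SAP. These spreads are a description with no test.

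**Figure D3:**
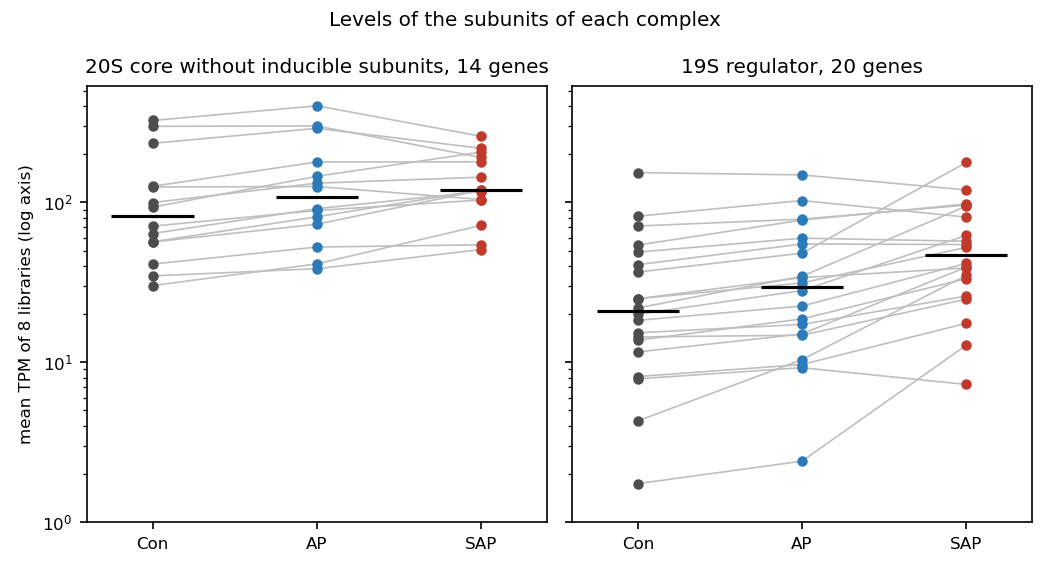
Mean TPM of each tested subunit in each group (log axis), 14 of the core and 20 of the 19S regulator, with lines joining a subunit across groups and bars at the median. The median of the regulator lies at 20.9 TPM in Con, 29.7 TPM in AP and 46.9 TPM in SAP.

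The inducible subunits did not rise in SAP. Psmb9 ranged from 45.3 to 211 TPM in Con (median 82.8), from 18.6 to 158 TPM in AP (median 95.2) and from 12.7 to 51.2 TPM in SAP (median 35.4). It fell by 1.57 on the log2 scale against Con (0.39 SE, adjusted p = 0.000836), and 4 of 8 SAP libraries lay below all Con libraries. SAP 26 to 29 had 12.7 to 24.8 TPM and SAP 21, 22, 24 and 25 had 45.9 to 51.2 TPM. Without SAP 26 to 29 the difference was -0.86 (adjusted p = 0.0873). Psmb9 overlaps Tap1, a peptide transporter gene, on the other strand.

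Psmb8 ranged from 57.7 to 334 TPM in Con (median 124), from 37.4 to 283 TPM in AP (median 172) and from 126 to 179 TPM in SAP (median 146). Its difference in SAP was 0.18 (95% interval -0.51 to 0.87, adjusted p = 0.631). Psmb10 ranged from 87.6 to 278 TPM in Con (median 154), from 41.0 to 225 TPM in AP (median 159) and from 66.4 to 166 TPM in SAP (median 123), a difference of -0.48 (95% interval -1.12 to 0.15, adjusted p = 0.157). In AP, library AP 18 was the lowest for all 3 inducible genes. Con libraries varied widely for these genes, so the intervals are broad.

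Each inducible subunit was also set against the subunit it replaces, as a ratio of TPM within a library, which does not depend on scaling. Psmb10 to Psmb7 ranged from 1.27 to 5.31 in Con (median 2.74), from 0.465 to 2.97 in AP (median 1.73) and from 0.539 to 1.58 in SAP (median 1.02). The log2 ratio was lower by 1.39 in SAP than in Con (exact permutation test, two-sided, p = 0.00218, adjusted over 9 tests 0.0196), though the groups overlapped. Taken singly by limma, Psmb7 rose by 0.89, while Psmb10 had a difference of -0.48 that was not called. The lower ratio is therefore not a fall of Psmb10 alone. Psmb9 to Psmb6 ranged from 0.167 to 0.487 in Con (median 0.250), from 0.0515 to 0.376 in AP (median 0.235) and from 0.0422 to 0.257 in SAP (median 0.132). Its log2 difference of -1.28 did not pass after adjustment (exact permutation p = 0.0141, adjusted 0.0636). Psmb8 to Psmb5 differed by -0.36 (exact permutation p = 0.184, adjusted 0.276), and none of the 6 other ratio tests passed, the smallest exact permutation p among them being 0.0643 before adjustment.

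The SAP libraries differed among themselves in these ratios. Psmb9 to Psmb6 was 0.186 to 0.257 in SAP 21, 22, 24 and 25 and 0.0422 to 0.0773 in SAP 26 to 29. Without SAP 26 to 29 the Psmb10 to Psmb7 difference from Con was smaller, at -0.80, and was not called (exact permutation, adjusted p = 0.290). The call was also lost without Con 3 and Con 9 together, at -1.33 (exact permutation, adjusted p = 0.0779). Fewer libraries weaken the test, so a lost call does not by itself show that the call rests on the libraries left out. Kupffer cell markers, of the resident liver macrophages, summed to 54.4 to 210 TPM in Con and 42.9 to 85.7 TPM in SAP. Of these markers 5 were tested, with 4 lower, against 29.8% of all genes, and Marco higher. Their part in these ratios was not tested.

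**Figure D4:**
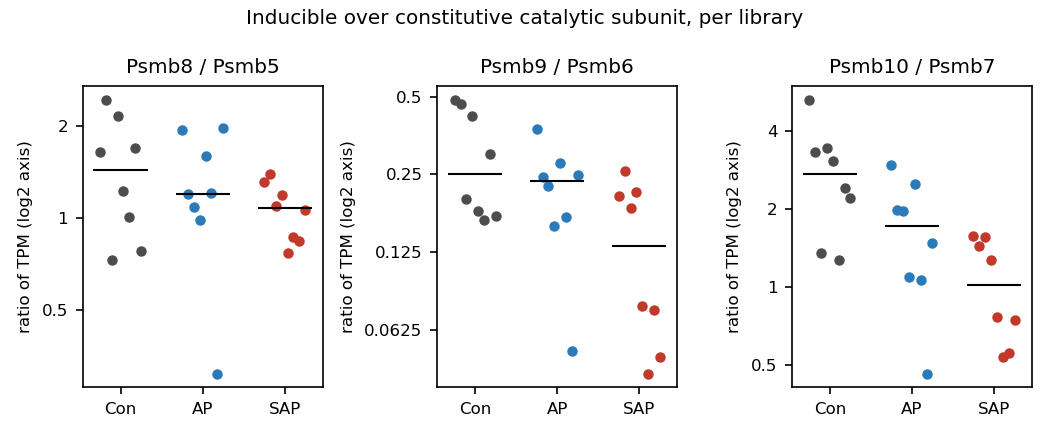
Ratio of TPM of each inducible subunit to the subunit it replaces, per library (log2 axis), with a bar at the group median. Medians of Psmb10 to Psmb7 are 2.74 in Con, 1.73 in AP and 1.02 in SAP, and the SAP libraries form an upper and a lower set for Psmb9 to Psmb6.

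Activators of the core also went different ways. Psme1, an interferon-inducible subunit of the PA28 activator, ranged from 135 to 374 TPM in Con (median 209), from 110 to 294 TPM in AP (median 235) and from 121 to 167 TPM in SAP (median 144). It fell by 0.55 in SAP (adjusted p = 0.00890), a call lost without Con 3 and Con 9 (-0.38, adjusted p = 0.0569) and without SAP 26 to 29 (-0.49, adjusted p = 0.0737). Its partner Psme2 had a difference of -0.32 (adjusted p = 0.0606), with 28.3% of its windows shared with other transcripts. Psme4, the PA200 activator, rose from 1.69 to 4.12 TPM in Con (median 3.21) and 2.34 to 4.86 TPM in AP (median 3.53) to 3.44 to 7.96 TPM in SAP (median 6.08), a log2 difference of 0.78. Psme3, the nuclear PA28 subunit, rose by 0.27 (adjusted p = 0.0488), and that difference was -0.002349 with libraries centred on their median. The inhibitor Psmf1 had a difference of 0.01 (95% interval -0.28 to 0.31).

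Of the core assembly chaperones, Psmg2 and Psmg3 rose and Psmg1 and Psmg4 fell in SAP. Psmg4 ranged from 45.6 to 84.1 TPM in Con (median 64.0), from 42.6 to 80.3 TPM in AP (median 62.1) and from 25.4 to 44.7 TPM in SAP (median 34.0), and fell by 0.83 without overlap between SAP and Con (adjusted p = 7.23e-06). Psmg1, which pairs with Psmg2 to build the alpha ring, fell by 0.62 (adjusted p = 0.00107) while Psmg2 rose by 0.82 (adjusted p = 0.00126). These calls rest on different SAP libraries. Psmg1 was at 5.69 to 7.26 TPM in SAP 21, 22, 24 and 25 and at 10.7 to 12.5 TPM in SAP 26 to 29, beside 10.8 to 17.6 TPM in Con, and without the first set its difference was -0.23 (adjusted p = 0.146). Psmg2 was at 5.63 to 6.11 TPM in the first set, inside the Con range of 2.61 to 7.27 TPM, and at 10.5 to 10.9 TPM in SAP 26 to 29, without which its difference was 0.44 (adjusted p = 0.113).

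Fewer genes were called in AP. Of 46 genes, 8 were higher than in Con, against a background of 4.35%, and 0 were lower, against 1.13% (limma). At an unadjusted p under 0.05, 25 were higher, against 15.5% of all genes, and 0 lower, against 5.34%. The median difference was 0.33, beside 0.06 over all genes. The 8 were Psmd13 (log2 difference 1.06, adjusted p = 0.0204), Psmb4 (0.65, 0.0218), Psmg3 (0.60, 0.0395), Psmc3 (0.55, 0.0427), Psmb7 (0.53, 0.0288), Psmb1 (0.52, 0.0238), Psma4 (0.52, 0.0236) and Psmb5 (0.41, 0.0360). In none of them did the AP and Con libraries stand apart. For Psmb1, a structural core subunit, AP ranged from 151 to 216 TPM (median 174), Con from 85.6 to 170 TPM (median 125) and SAP from 138 to 212 TPM (median 180). The count was unstable: it was 2 without Con 1, 19 without Con 3, 0 without Con 7, Con 10 or AP 15, and 1 without AP 17 or AP 19. None of the 8 calls held under every alternative scaling, filter, model and set of libraries tried.

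**Figure D5:**
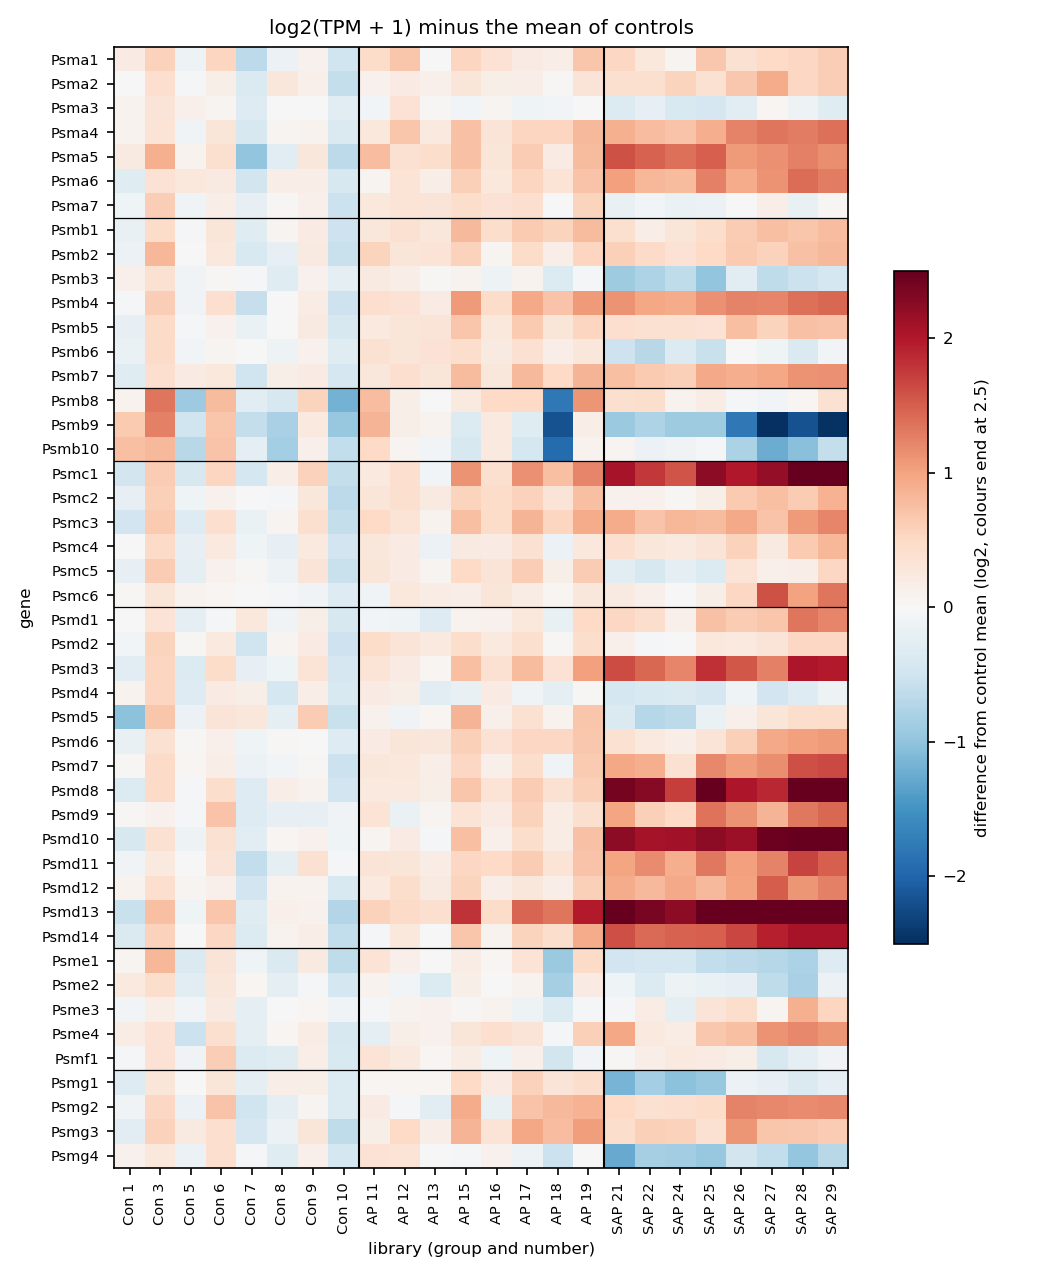
Level of each tested gene in each library as log2(TPM + 1) minus the mean of Con, red above and blue below, with colours ending at 2.5. Psmd13, Psmd10, Psmd8 and Psmc1 are red in all 8 SAP libraries, and Psmb8, Psmb9 and Psmb10 are blue in AP 18.

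Both comparisons above share the Con libraries, so SAP was also compared with AP directly. Of 46 genes, 21 were higher in SAP (45.7%), against a background of 41.0%, and 10 were lower (21.7%), against 31.0%. The share of higher genes lies near the background, and the median difference was 0.25, beside 0.13 over all genes. Of the 20 regulator genes 13 were higher, among them 7 of 8 lid genes, led by Psmd10 (2.03), Psmd8 (1.84), Psmd13 (1.74), Psmc1 (1.46) and Psmd14 (1.35). The lower genes included Psmb9 (-1.41), Psmg1 (-0.89), Psmg4 (-0.85), Psmb3 (-0.66), Psmb6 (-0.65) and Psma7 (-0.41). The split depends on scaling, and so do the shares of all genes. It was 16 higher and 15 lower with centred libraries, against 35.1% and 40.5% of all genes. With quantile normalization it was 25 and 6, against 38.7% and 36.2%. After leaving out the 50 most abundant genes it was 26 and 7, against 45.4% and 28.6%.

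Genes that act with the proteasome were taken as lists, whose counts in SAP are to be read against the 44.2% higher, 29.8% lower and median of 0.21 over all genes. Of 13 tested genes of NRF1 and NRF2 control, the transcription factors of proteasome genes and the proteins that process or restrain them, 8 were higher in SAP than in Con and the other 5 were not called, with a median of 1.24 beside 0.21 over all genes. Nfe2l2, which encodes NRF2, was 5.83 ± 2.33 TPM in Con, 5.29 ± 1.11 TPM in AP and 25.3 ± 6.02 TPM in SAP (SD, 8 libraries each), a log2 difference of 1.99 from Con to SAP. Ddi2, the protease that activates NRF1, was 5.81 ± 1.97 TPM in Con, 4.84 ± 1.19 TPM in AP and 26.7 ± 11.1 TPM in SAP, a difference of 1.98. Ufd1, a cofactor of the Vcp unfoldase, rose by 1.79 in SAP and by 0.55 in AP (adjusted p = 0.0273). Nfe2l1, which encodes NRF1, had a difference of 0.23 in SAP (adjusted p = 0.180).

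Of 14 deubiquitinases, shuttles and other proteasome-bound factors, 11 were higher and 2 lower in SAP, with a median of 0.84 beside 0.21 over all genes. The 3 with the smallest p over the groups were Zfand5 (log2 difference 1.84), Zfand2a (1.64) and Nub1 (1.63). Of 5 tested ubiquitin genes and activating enzymes, 3 rose and 2 fell. Ubb, a polyubiquitin gene, was 868 ± 344 TPM in Con, 1321 ± 293 TPM in AP and 2637 ± 538 TPM in SAP, a log2 difference of 1.67 in SAP and 0.66 in AP (adjusted p = 0.0444). Uba1, the main activating enzyme, rose by 1.78 in SAP.

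Of 5 tested subunits and assembly factors with other names, 1 was higher in SAP. It was Pomp, the maturation factor of the core, which rose by 0.71 in SAP and by 0.65 in AP (adjusted p = 0.0223). Sem1, a lid subunit, had a log2 difference of 0.02, and Ecpas, a proteasome adaptor, -0.32 (adjusted p = 0.0788). Of 13 tested genes of interferon control and antigen processing, 5 were higher and 3 lower in SAP, with a median of 0.41. Both shares are below the 44.2% and 29.8% of all genes. Both receptor chains rose, Ifngr1 by 1.42 and Ifngr2 by 1.02, while B2m, the light chain of MHC class I, fell by 1.14 and Irf1 by 0.61 (adjusted p = 0.0466). MHC class I genes did not all fall, as H2-D1, a heavy chain, rose by 1.35 (limma adjusted p = 6.24e-06). Irf1, a transcription factor of the interferon response, was chosen for mention after its values had been seen. In AP, Ufd1, Vcp, Ubb and Pomp were called higher than in Con by limma.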

How the data were processed

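Livers had been frozen in liquid nitrogen, RNA taken with Trizol and libraries made by standard Illumina methods, per the labels' protocols. The deposited table gives TPM per gene symbol, as the authors made it, with 2 decimals and no header naming the unit. The unit was read from the values: libraries sum to just under 1000000, and low values fall with transcript length (the lowest 5% of values above 0 end at 0.09 to 0.13 TPM for genes of 300 to 600 bases and at 0.01 to 0.02 TPM for 3000 to 6000 bases). The authors' processing notes name edgeR without a version. No aligner, genome build or annotation is named in the sources used here. All 24 columns were mapped by title.

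A pseudocount of 1 was added before log2, and the 10555 genes averaging 1 TPM or more were kept. A single limma fit (version 3.58.1, R 4.3.3), with a trend on intensity, covered the 3 groups (21 residual degrees of freedom), with Benjamini-Hochberg adjustment over all genes. Ratios were tested with exact permutation tests over 12870 arrangements. The limma step was tested on simulated data, and the exact test on a small case with a known answer. A level was called uncertain where at least 20% of the 50-base windows of a gene occur in other GENCODE M21 transcripts. All members are named, and of each companion list the 3 genes with the smallest p over the groups, except that some list genes are not reported here. Members, lists and 4 of the 5 promoter motifs were chosen with earlier results of these data known. The fifth motif was added after the others had been counted and promoters read. Alternatives covered scaling, filter, pseudocount, model, threshold and libraries left out, of which the sets of several libraries had been named in an earlier analysis of these data.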

Additional observations from a re-analysis of the deposited data

Results flagged for a closer look

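A library was singled out where its gap to the nearest other library passed Dixon's critical share of the range of its group of 8. Of 147 groups of values, 7 had such a library, and chance gives about 1 in 20. Con 3 was the highest control for Psmb2, at 122 TPM, with the next at 81.4 TPM, and for Psmb6, at 449 TPM, with the next at 347 TPM. Con 6 was the highest control for Psmd9, at 13.7 TPM against a next value of 8.61 TPM. In AP, Psma3 reached 159 TPM in AP 12, with the next library at 131 TPM, and Psme1 fell to 110 TPM in AP 18, with the next at 209 TPM. In SAP, Psma2 reached 65.7 TPM in SAP 27, with the next at 54.4 TPM, and Psmg3 reached 21.8 TPM in SAP 26, with the next at 16.1 TPM.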

How the results depend on the processing

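Of 38 calls between SAP and Con, 25 held under every alternative scaling, filter, pseudocount, model and set of libraries, Psmd13, Psmd10, Psmd8, Psmc1, Psmd14 and Psmg4 among them. Of 31 between SAP and AP, 17 did, and of 8 between AP and Con, 0 did. Leaving out single libraries gave 29 to 31 higher and 6 to 9 lower genes for SAP against Con, 18 to 23 and 8 to 11 for SAP against AP, and 0 to 19 higher for AP against Con. A log2 difference of at least 1 left 14 higher and 1 lower for SAP against Con, 6 and 1 for SAP against AP, and 1 higher for AP against Con. The AP count was 3 with quantile normalization, 14 with centred libraries, 4 without the 50 most abundant genes and 3 without mitochondrial transcripts. Of all genes, 3.68%, 7.08%, 1.93% and 2.03% were higher in AP under these settings, in that order. The AP count was 0 with no filter, 23 with array weights, 21 without Con 3 and Con 9, and 0 at an adjusted p under 0.01. It was 0 without AP 15, 17, 18 and 19, and 16 without AP 11, 12, 13 and 16. No share of all genes is given beside the counts for other filters, thresholds, weights or left-out libraries, so they describe the calls only. Lower genes in SAP against Con numbered 4 without Con 3 and Con 9. For SAP against AP, 13 were higher without SAP 26 to 29, and 6 were lower with quantile normalization or without SAP 21, 22, 24 and 25.

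Against AP, Psmb1 turned to -0.22 with centred libraries (limma adjusted p = 0.0275), and Psmc6 to -0.046 without SAP 26 to 29. Psme3 against Con turned to -0.002349 with centred libraries. The Psmb10 to Psmb7 log2 ratio for SAP against Con was -1.33 without Con 3 and Con 9, -0.80 without SAP 26 to 29, and -1.53 to -1.23 without single libraries. It was -1.26 for SAP against AP without AP 15, 17, 18 and 19 and -1.42 for AP against Con without AP 11, 12, 13 and 16, both then passing. Psmb9 to Psmb6 passed without SAP 21, 22, 24 and 25, at -2.21 against Con and -1.72 against AP. These sets of libraries had been named in an earlier analysis of the same data, so passing with a set left out is no support. Psmb9 to Psmb6 also passed against Con without SAP 22 (-1.45) or SAP 25 (-1.41), within -1.45 to -1.08 over single libraries. The cause of these shifts was not tested. No paired analysis was possible because the groups share no replicate numbers. TPM gives no depth, so counting error is unknown.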
